A study of Mus musculus with 11 samples.

Results

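The Sox and Runx transcription factors that steer cartilage and bone formation, with aggrecan, were followed across mouse heart progenitor cells and a myoblast line. The 8 genes are Sox9, Sox5, Sox6, Sox4, Sox11, Runx1, Runx2 and Acan, taken by gene name. They were found on the arrays by symbol, older synonym or accession, as 26 of 41121 probes and 8 of 27567 genes. RNA was hybridised to 11 Agilent one-colour arrays. The KO group (5 arrays) held cardiac progenitor cells, called mesoangioblasts in the design, of dystrophic mice null for beta-sarcoglycan. The WT group (3 arrays) held the same kind of cell from wild-type mice, and both groups were taken from biopsies of ventricle, aorta and atrium. C2C12 (3 arrays), a mouse myoblast line, stood as the positive control for muscle differentiation. Age, strain, passage and culture state at harvest are not given in the sources used here. The labels say that KO cells form skeletal muscle fibres and WT cells beating cardiomyocytes.

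SOX factors bind DNA through an HMG box. Sox9 switches on cartilage genes such as Col2a1 and Acan, and Sox5 and Sox6, which lack an activation domain of their own, help it do so. Sox4 and Sox11 form another branch, active in progenitors of nerve, skeleton and heart. Runx1 (blood formation) and Runx2 (bone formation) bind DNA together with Cbfb, and Acan encodes aggrecan, the large proteoglycan of cartilage matrix. In the embryonic heart, Sox9 is known from the valve cushions and Sox4 and Sox11 from the outflow tract.

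Values are on a log2 scale on which 0 stands for a signal equal to an array's own 75th percentile, and a level is not comparable between probes. Arrays of 1 group that differed by less than the noise between repeated spots were averaged, which left 3 KO samples (ventricle, aorta, atrium), 3 WT samples (the same regions) and 2 C2C12 samples. KO was set against WT on the 6 heart samples, and C2C12 comparisons used all 8. A gene was called at a limma adjusted p below 0.05. Where no array of a group was above background, the difference is given as "at least N-fold". Such a probe passed the filter on dim signals through the brighter group, which by itself favours a difference, so its adjusted p is a description. The series design speaks of biological triplicates, but 3 pairs of arrays were these near-identical ones, and no label ties a sample to a mouse or culture of its own. The spread behind each p-value may therefore be technical, and within KO and within WT it is one between heart regions.

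Some facts of the whole series touch every result. Sgcb, the gene deleted in the KO mice, averaged 2.66 ± 0.32 in KO and 2.03 ± 0.19 in WT samples (SD, n = 3 each) on its brightest probe, a difference of 0.63 (limma adjusted p = 0.071). This goes against the KO label, unless the probe lies outside the deleted part, which the labels do not give; the groups are therefore called KO-labelled and WT-labelled. No slide held both of them. Each was hybridised with C2C12 on its own slides, so values with the slide as a block are given as slide-blocked, and they carry the difference between the C2C12 samples. From 49.0 to 62.0% of an array's probes were well above background. Of the skeletal muscle markers, 8 of 9 were higher in KO-labelled cells, and the list's summed signal, in multiples of the 75th percentile, was 51.4 to 208 in KO-labelled, 0.531 to 2.67 in WT-labelled and 138 to 320 in C2C12 samples. The epicardial sum was 2.82 to 7.31 in KO-labelled samples and 10.3 to 99.7 in WT-labelled samples, with Tcf21 and Upk3b not above background on any array. Of the 4 epicardial markers tested, Bnc1 was at least 62.8-fold lower and Krt19 at least 1.24-fold higher in KO-labelled cells, while Msln (-3.19) and Tbx18 (-0.04) did not pass. The fibroblast sum was 252 to 283 in KO-labelled and 143 to 249 in WT-labelled samples, with 3 of 7 tested markers higher (Col1a1, Col1a2 and Col3a1) and 3 lower (Thy1, at least 1290-fold, Pdgfra by -4.11 and Dcn by -4.16). The smooth muscle and pericyte sum was 160 to 300 in KO-labelled and 34.8 to 171 in WT-labelled samples, with 2 of 5 tested markers higher (Cnn1 by 3.72 and Pdgfrb by 1.30). The macrophage sum was 0.171 to 0.244 in KO-labelled and 1.22 to 2.36 in WT-labelled samples, with Ptprc, Adgre1, Itgam and Spi1 not above background on any array. The endothelial sum was 0.467 to 0.708 in KO-labelled and 1.12 to 3.23 in WT-labelled samples, with Pecam1, Cdh5, Kdr and Tie1 not above background. The glial sum was 0.3 to 0.767 in KO-labelled and 0.713 to 0.991 in WT-labelled samples. The part of these cells in the differences below was not tested, and fewer cells of a type cannot be told apart from less RNA per cell.

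The members' upstream sequences are shown for 2 pairs of relatives, Sox11 with Sox4 and Runx1 with Runx2, since 1 gene of each pair was called in a comparison below and the other was not. They come from RefSeq (GRCm38.p6), run from 250 bases before the start of the gene to 50 after it, and are written on the gene's own strand. Of the 8 members, 7 had an entry (13 promoters). ACAAAG (a SOX core; CTTTGT on the other strand) and TGTGGT (a RUNX core; ACCACA on the other strand) were searched on both strands, and matches of the 2 cores can share letters where one runs into the other. Capitals mark the matches.
Sox11, chr12:27342669-27342968, minus strand: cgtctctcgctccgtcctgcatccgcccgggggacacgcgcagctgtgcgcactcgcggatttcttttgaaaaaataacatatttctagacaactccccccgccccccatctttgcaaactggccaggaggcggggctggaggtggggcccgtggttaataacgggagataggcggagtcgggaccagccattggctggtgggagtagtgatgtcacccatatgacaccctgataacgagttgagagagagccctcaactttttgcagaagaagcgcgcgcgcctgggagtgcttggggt
Sox4, chr13:28953650-28953949, minus strand: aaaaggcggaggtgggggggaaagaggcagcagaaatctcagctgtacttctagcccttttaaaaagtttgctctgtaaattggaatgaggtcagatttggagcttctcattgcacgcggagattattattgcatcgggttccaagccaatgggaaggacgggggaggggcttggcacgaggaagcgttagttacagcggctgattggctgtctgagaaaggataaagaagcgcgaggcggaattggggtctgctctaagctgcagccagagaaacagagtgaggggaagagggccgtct
Runx1, distal start, chr16:92826025-92826324, minus strand: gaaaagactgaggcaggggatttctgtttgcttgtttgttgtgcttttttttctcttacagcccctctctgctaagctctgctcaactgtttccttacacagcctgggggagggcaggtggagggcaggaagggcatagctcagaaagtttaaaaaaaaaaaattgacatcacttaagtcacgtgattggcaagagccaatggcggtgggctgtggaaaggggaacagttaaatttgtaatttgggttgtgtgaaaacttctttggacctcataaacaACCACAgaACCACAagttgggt
Runx2, chr17:44814578-44814877, minus strand: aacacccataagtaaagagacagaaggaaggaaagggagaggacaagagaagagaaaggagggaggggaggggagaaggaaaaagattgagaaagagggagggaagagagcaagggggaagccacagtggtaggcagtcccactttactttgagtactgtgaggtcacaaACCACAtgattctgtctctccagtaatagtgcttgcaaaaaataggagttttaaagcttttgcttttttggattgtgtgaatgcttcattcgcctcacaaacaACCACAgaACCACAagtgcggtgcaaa
Neither core was found in the Sox11 or Sox4 window. The distal Runx1 window held ACCACA at positions 29 and 37 after the start, and the Runx2 window held it at 24 and 32 and once more 80 bases before the start. Over all 32817 promoters of this length, 18.7% held the SOX core and 16.8% the RUNX core. The CpG ratio (observed over expected) was 0.817 for Sox11 and 0.679 for Sox4, against a median of 0.383 over all promoters, and 0.137 for the distal Runx1 window and 0.143 for Runx2. The second Runx1 entry (chr16:92697280-92697579) held neither core and had a CpG ratio of 1.01. A match is a description of these letters, not evidence of binding.

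**Figure D1:**
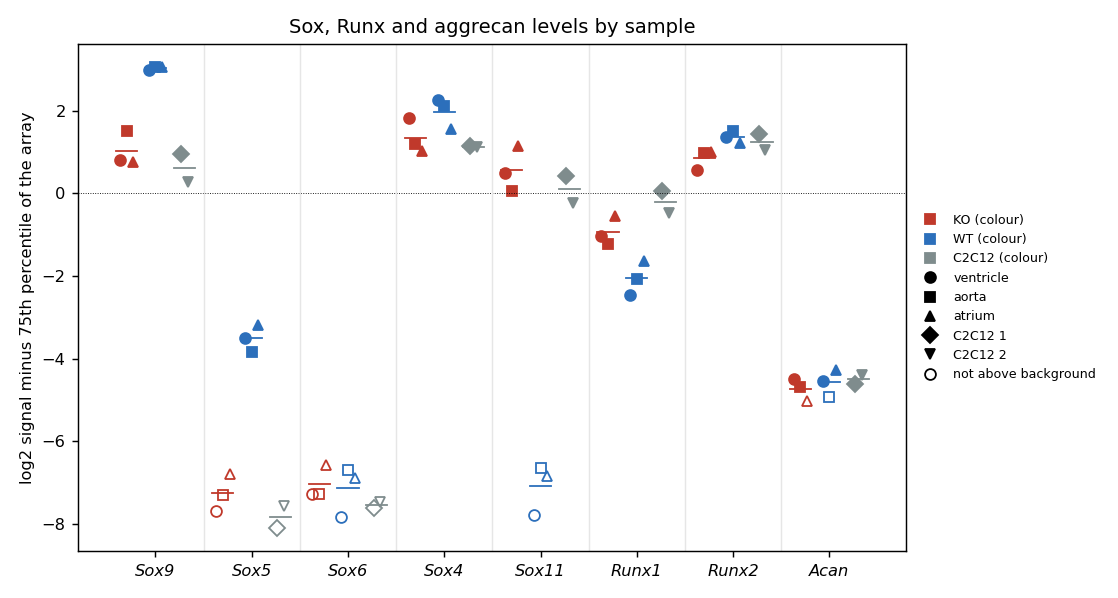
Level of each gene in every sample, as log2 signal minus the 75th percentile of the array (vertical axis). Colour gives the group, shape the heart region or the C2C12 sample, short lines the group means, and open symbols no array above background. The Sox11 column shows its brightest probe. Sox9 and Sox5 are highest in the WT-labelled samples, and Sox11 is open in all 3 of them.

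Of the 7 members that could be tested, KO-labelled cells had 1 higher (Runx1) and 2 lower (Sox9 and Sox5) than WT-labelled cells, and 4 did not pass the test. Over all 15002 tested genes, 29.7% were called in this comparison (13.7% higher and 16.1% lower), so a call on its own is common here. The median difference over all genes was -0.06. Sox11, whose probes disagree, is described by probe.

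Sox9 was lower in KO-labelled cells on all 3 of its probes. The brightest (mm8 chromosome 11, 112601784 to 112601843) read 0.82 in ventricle, 1.51 in aorta and 0.76 in atrium of KO-labelled hearts. The same probe read 3 in ventricle, 3.05 in aorta and 3.06 in atrium of WT-labelled hearts, and 0.96 and 0.28 in C2C12. The WT-labelled samples lay close together and above every other sample. The KO-labelled mean was 1.03 ± 0.41 and the WT-labelled mean 3.04 ± 0.03 (SD, n = 3 each), and the difference was -2.01 (SE 0.23, limma adjusted p = 0.00165; slide-blocked -2.69, adjusted p = 0.0265).

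A second Sox9 probe (112603585 to 112603644, 10 spots on each array) read 0.16, 0.72 and 0.16 in KO-labelled ventricle, aorta and atrium. WT-labelled hearts gave 2.64, 2.78 and 2.64 in the same order. Again the groups did not overlap, which was so for 49.2% of tested genes. The difference was -2.35 (SE 0.20, limma adjusted p over probes = 0.000517). The dimmest probe (112599086 to 112599938) differed by -1.25 (SE 0.18, limma adjusted p over probes = 0.0044) and was above background on 4 of 5 KO-labelled arrays. Its slide-blocked difference was -1.63, which did not pass (adjusted p over probes = 0.0673).

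Sox5 was above background in WT-labelled cells and in no KO-labelled or C2C12 array, on 1 of its 4 probes. That probe (mm8 chromosome 6, 143786281 to 143786340), placed on Sox5 through a synonym of its cDNA, read -3.5 in ventricle, -3.83 in aorta and -3.17 in atrium of WT-labelled hearts. The KO-labelled samples, all at background, read -7.68, -7.29 and -6.79 in that order, and C2C12 -8.09 and -7.57. Sox5 was at least 2.75-fold lower in KO-labelled than in WT-labelled cells (limma adjusted p = 0.000354), and at least 4.09-fold higher in WT-labelled cells than in C2C12 (limma adjusted p = 0.000123). It passed the filter only through the 3 WT-labelled arrays, so its place among the lower genes is no independent support. With a normexp background correction in place of the scanner's, neither difference passed (adjusted p = 0.328 and 0.277). A probe of the reference transcript (143790222 to 143790281) was above background only in WT-labelled atrium, at -4.09, and the other 2 on no array. Sox6, the partner of Sox5, had 5 probes on chromosome 7 (115263053 to 115332904), and none was above background on any of the 11 arrays.

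Sox11 separated KO-labelled from WT-labelled cells on 5 of its 6 probes. Those 5 were above background on all 5 KO-labelled and all 3 C2C12 arrays and on none of the 3 WT-labelled arrays. The brightest (mm8 chromosome 12, 27921466 to 27921525) read 0.5 in ventricle, 0.07 in aorta and 1.15 in atrium of KO-labelled hearts, and 0.43 and -0.22 in C2C12. The WT-labelled samples, all at background, read -7.78 in ventricle, -6.63 in aorta and -6.84 in atrium. By this probe Sox11 was at least 44.7-fold higher in KO-labelled than in WT-labelled cells (limma adjusted p over probes = 8.62e-05; slide-blocked adjusted p over probes = 0.00781). The bounds over the 5 probes ran from 16.6-fold to 44.7-fold. Within the KO-labelled samples the atrium was the highest and the aorta the lowest on each of the 5.

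The sixth Sox11 probe (27928353 to 27928412) gave another picture. It lies nearest the start of the gene, 1364 bases from the next probe, and was above background on all 11 arrays. It read -2.33 in ventricle, -2.73 in aorta and -2.58 in atrium of KO-labelled hearts, against -2.32, -2.51 and -3.2 in WT-labelled hearts, and -3.03 and -2.99 in C2C12. KO-labelled and WT-labelled samples overlapped on it and differed by 0.13 (SE 0.27, limma adjusted p over probes = 0.751). It has the highest mean over the 6 heart samples and is therefore the gene's probe in KO with WT, which is why Sox11 is not among the genes called there. Taking the probe with the highest single sample, a rule added after the data were seen, puts the gene on the brightest probe and its bound of at least 44.7-fold (limma adjusted p = 8.92e-05). An annotation of this genome build was not used here, so whether the probes lie in coding sequence or a UTR is not stated.

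**Figure D2:**
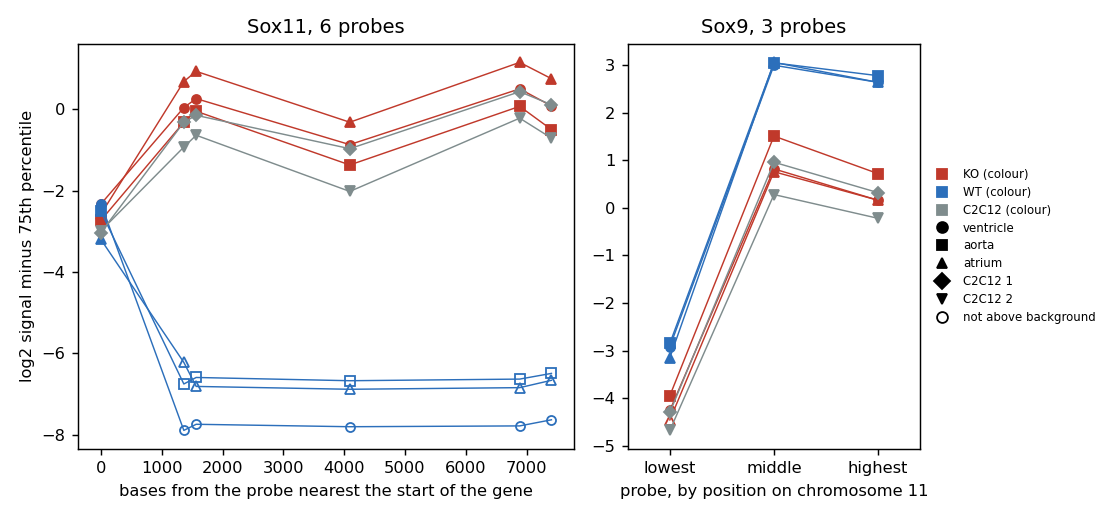
Left, log2 signal minus the 75th percentile (vertical axis) of the 6 Sox11 probes by their distance in bases from the probe nearest the start of the gene; right, the 3 Sox9 probes by position. Each line is 1 sample, coloured by group, and open symbols were not above background. The WT-labelled lines drop to background on 5 Sox11 probes and meet the others at the sixth, while on Sox9 they lie above the others throughout.

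Sox4, the close relative of Sox11, was bright in every sample. Its single probe (mm8 chromosome 13, 28959662 to 28959721) read 1.82 in ventricle, 1.19 in aorta and 1.04 in atrium of KO-labelled hearts. In WT-labelled hearts it read 2.27, 2.12 and 1.56 in the same order, and in C2C12 1.14 and 1.12. The groups overlapped, and the difference of -0.63 (SE 0.28) between KO-labelled and WT-labelled means did not pass (limma adjusted p = 0.146). In both genotypes ventricle was above atrium, by 0.78 in KO-labelled and 0.70 in WT-labelled hearts, a mean of 0.74 that did not pass over all genes (limma adjusted p = 0.56).

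Runx1 was higher in KO-labelled cells on both of its probes. The brighter (mm8 chromosome 16, 92493027 to 92493086) read -1.02 in ventricle, -1.21 in aorta and -0.55 in atrium of KO-labelled hearts, against -2.46, -2.07 and -1.63 in WT-labelled hearts, and 0.07 and -0.47 in C2C12. The 3 groups did not overlap, with C2C12 highest and WT-labelled lowest. KO-labelled and WT-labelled samples by themselves did not overlap for 49.2% of tested genes. KO-labelled and WT-labelled means differed by 1.13 (SE 0.28, limma adjusted p = 0.0272). The second probe, of another cDNA (92502617 to 92533069), differed by 0.71 (SE 0.18, limma adjusted p over probes = 0.0287). The call was lost on leaving out any 1 of 4 samples, while the difference stayed between 0.93 and 1.17. Without KO-labelled ventricle the difference was 1.17 (adjusted p = 0.0667) and without KO-labelled atrium 0.94 (adjusted p = 0.0861). Without WT-labelled ventricle it was 0.93 (adjusted p = 0.0745) and without WT-labelled aorta 1.12 (adjusted p = 0.0855), and slide-blocked the difference was 0.58 (adjusted p = 0.657). Measured within slides, the KO-labelled minus C2C12 difference was -1.16 on slide 1 and -1.02 on slide 3, and the WT-labelled minus C2C12 difference was -1.58 on slide 2. Slides 1 and 3 share near-identical arrays of KO-labelled ventricle, KO-labelled aorta and C2C12, so their values are not independent.

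Runx2 was bright in every group. Its brightest probe (mm8 chromosome 17, 44067120 to 44067179, 10 spots on each array) read 0.57 in ventricle, 0.98 in aorta and 1.01 in atrium of KO-labelled hearts, against 1.37, 1.51 and 1.23 in WT-labelled hearts, and 1.44 and 1.06 in C2C12. KO-labelled samples all lay below WT-labelled ones, which was so for 49.2% of tested genes in one direction or the other. The difference of -0.52 (SE 0.18) did not pass (limma adjusted p = 0.0757). It did with every array as its own sample (adjusted p = 0.0205), a setting that counts near-identical arrays as separate samples. Slide-blocked it was -0.91 and did not pass (limma adjusted p = 0.237). Of the other 3 probes, 2 differed by -0.29 and -0.44 without passing. The remaining 1 lies nearest the start of the gene, 206203 bases from the next probe, and was above background on 1 WT-labelled and 1 C2C12 array.

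Acan, the aggrecan gene and a target of Sox9 in cartilage, stayed close to background. Its probe (mm8 chromosome 7, 78988368 to 78988428) read -4.5 in ventricle, -4.69 in aorta and -5.01 in atrium of KO-labelled hearts, against -4.53, -4.92 and -4.26 in WT-labelled hearts, and -4.61 and -4.39 in C2C12. It was above background on 4 of 5 KO-labelled, 2 of 3 WT-labelled and 3 of 3 C2C12 arrays. The samples overlapped, and the KO-labelled minus WT-labelled difference was -0.17 (SE 0.23, limma adjusted p = 0.628), so no difference was detectable at this signal.

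Set against C2C12, KO-labelled cells had 0 of 7 members called, by limma, and 0 at an unadjusted p below 0.05. The 7 include Sox5, which was at background on every array of both groups and entered the test only through the WT-labelled arrays. Its place among the members not called is therefore no result. In this comparison 1.25% of 15805 genes were called (0.664% higher and 0.588% lower). The Sox9 difference was 0.41 (SE 0.29) and that of Sox11, on its brightest probe, 0.47 (SE 0.44). Runx1 came nearest, at -0.72 (SE 0.31, limma adjusted p = 0.413, unadjusted p = 0.0543). It passed only with every array as its own sample (-0.89, adjusted p = 0.0317), where near-identical arrays count separately. A p that misses the threshold does not show that these levels are equal.

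WT-labelled cells differed from C2C12 in 4 of 7 members, 2 higher and 2 lower, where 27.0% of all genes were called (13.8% higher and 13.2% lower). Sox9 was higher by 2.42 (SE 0.29, limma adjusted p = 0.00108), and Sox5 was higher as given above. Sox11 was at least 32.2-fold lower on its brightest probe (limma adjusted p = 5.25e-05). The Sox5 and Sox11 probes passed the filter only through groups where they were bright, so their calls are no independent support for this count. Runx1 was lower by 1.85 on the log2 scale (-1.85, SE 0.31, limma adjusted p = 0.00526). Sox4 was 0.85 higher without passing (SE 0.29, limma adjusted p = 0.0723). It passed with every array as its own sample (adjusted p = 0.0201), where near-identical arrays count separately. It also passed without KO-labelled ventricle (0.0438) and without WT-labelled atrium (1.06, adjusted p = 0.0242), but under no other alternative. Slide-blocked the Sox4 difference was 0.86 (limma adjusted p = 0.227). The comparisons share the C2C12 samples, and WT-labelled and KO-labelled samples enter one another's comparison too.

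**Figure D3:**
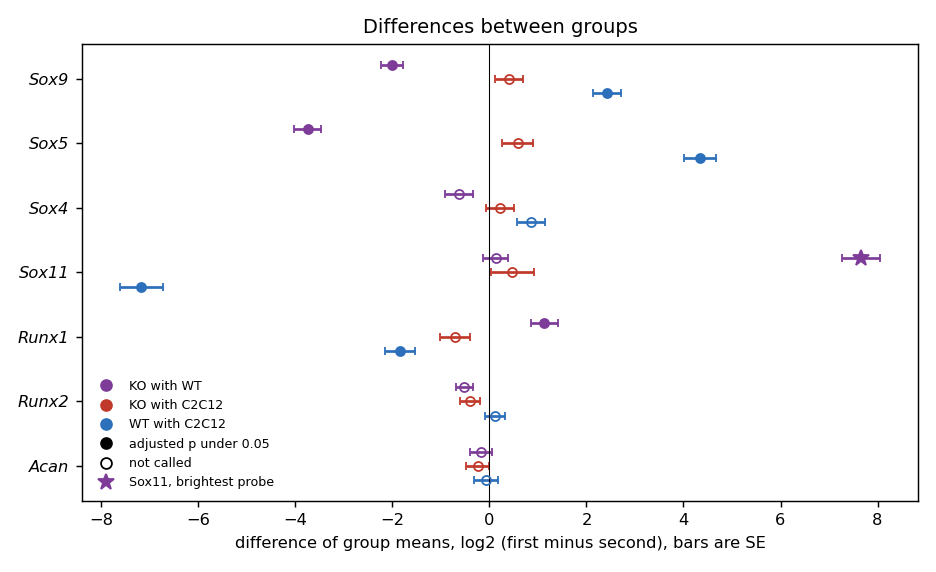
Difference of group means on the log2 scale (horizontal axis, first group minus second) with its SE for the 7 tested genes. Filled circles passed at an adjusted p below 0.05, and the star is the brightest Sox11 probe in KO with WT. No KO with C2C12 circle is filled. The Sox5 circles, the star and the Sox11 circle for WT with C2C12 are fitted to signals at background and are no exact size. The Sox11 circle for KO with WT is the probe nearest the start of the gene, and the other Sox11 symbols are the brightest probe.

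Between heart regions 0 of 15002 genes were called in any pair, by limma, and so 0 members. At an unadjusted p below 0.05 there were 440 genes for ventricle with aorta, 675 for atrium with aorta and 1148 for ventricle with atrium, among them 0, 0 and 2 members. Each region has 1 KO-labelled and 1 WT-labelled sample, and region and array position cannot be told apart.

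The genes that work with these factors were taken as lists chosen with earlier results in view. Each list's counts stand beside 13.7% higher and 16.1% lower over all tested genes, KO-labelled with WT-labelled. Among 13 tested partners and co-regulators of Runx, 2 were higher and 3 lower in KO-labelled cells, with a median difference of 0.07. Runx3, the third Runx factor, was higher by 2.06 (limma adjusted p = 0.000558; slide-blocked 0.0219). Tle4, a Groucho-type co-repressor, was lower by 1.59 on the log2 scale (-1.59, limma adjusted p = 0.00389; slide-blocked 0.0482). Runx1t1, a co-repressor, differed by -3.16 (limma adjusted p = 0.0132), a call lost slide-blocked (0.385).

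Of 6 other Sox genes tested, 0 were called by limma and 1 was higher at an unadjusted p below 0.05, and Sox2 and Sox3 were above background on no array. Of 7 tested SoxC targets and partners (genes that Sox4 and Sox11 are reported to regulate or work with), 2 were higher and 1 lower. Stmn2, a microtubule regulator of neurons, was at least 85.6-fold higher in KO-labelled cells (limma adjusted p = 0.000138; slide-blocked 0.0101). Tubb3, a neuronal tubulin, was higher by 1.10 (limma adjusted p = 0.00614; slide-blocked 0.119). Npr2, a natriuretic peptide receptor that promotes growth-plate cartilage, differed by -3.13 (limma adjusted p = 0.0028; slide-blocked 0.11).

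Of 20 tested chondrogenic regulators and signals, 7 were higher and 5 lower, a median of 0.04. Scx (scleraxis, a tendon factor) read 4.85, 4.87 and 5.23 in KO-labelled ventricle, aorta and atrium, and -4.32, -4.55 and -4.93 in the same WT-labelled regions, where it was above background on 1 of 3 arrays (limma adjusted p = 1.01e-05; slide-blocked 0.000872). Pthlh, a signal that keeps chondrocytes from maturing, was at least 2.64-fold higher (limma adjusted p = 0.00945; slide-blocked 0.17). Twist1, an inhibitor of Runx2 function, was lower by 2.35 on the log2 scale (-2.35, limma adjusted p = 0.000176; slide-blocked 0.00946). Ihh and Nkx3-2 were above background on no array.

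Of 11 tested cartilage matrix genes, 3 were higher and 2 lower (13.7% and 16.1% over all tested genes). Col10a1 and Matn1 were above background on no array. Col2a1, the main cartilage collagen and a Sox9 target, read 2.72, 2.47 and 2.17 in KO-labelled ventricle, aorta and atrium, against 1.31, 0.42 and -0.77 in WT-labelled hearts. It was thus higher where Sox9 was lower, by 2.13 (limma adjusted p = 0.0266; slide-blocked 0.251). Prg4, the lubricant of joint surfaces, was at least 1.86-fold higher (limma adjusted p = 0.0092; slide-blocked 0.277). Col11a1, a fibril collagen of cartilage, was at least 31.7-fold lower (limma adjusted p = 0.00389; slide-blocked 0.218).

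Around aggrecan itself, 6 tested lecticans, link proteins and hyaluronan synthases held 0 higher (2 at an unadjusted p below 0.05) and 1 lower, which was Cd44, the hyaluronan receptor (-1.01, limma adjusted p = 0.0169; slide-blocked 0.152). Of 6 tested aggrecan-cleaving and cartilage proteases, 1 was higher and 3 lower, with a median of -1.03. Adamts4, an aggrecanase, was higher by 1.94 (limma adjusted p = 0.0215; slide-blocked 0.26), and Adamts9 at least 9.25-fold lower (limma adjusted p = 0.00115; slide-blocked 0.0657). Mmp3 (stromelysin) read -5.38, -7.15 and -6.78 in KO-labelled ventricle, aorta and atrium, above background on 1 of 5 arrays, and 1.25, -0.19 and 2.45 in WT-labelled hearts (limma adjusted p = 0.00109; slide-blocked 0.0563). Of 18 tested genes of chondroitin and keratan sulfate synthesis, 3 were higher and 2 lower. Chst3, which adds sulfate to chondroitin, led them with a difference of 3.90 and was above background on 2 of 3 WT-labelled arrays (limma adjusted p = 3.27e-05; slide-blocked 0.00234). Xylt2, which starts the sugar chain, and Chpf, which extends it, differed by -1.15 and -1.03 (limma adjusted p = 0.00178 and 0.00755; slide-blocked 0.0891 and 0.252).

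Among 8 tested osteoblast genes, 4 were higher and 2 lower, with a median of 0.49, while Ibsp and Alpl were above background on no array. Tnfsf11, the osteoclast signal RANKL, was at least 3.73-fold lower in KO-labelled cells (limma adjusted p = 0.00595; slide-blocked 0.205). Dmp1, a protein of mineralising matrix, was at least 1.45-fold higher (limma adjusted p = 0.0209; slide-blocked 0.333). The chondrocyte markers summed to 4.83 to 6.92 in KO-labelled, 0.763 to 2.84 in WT-labelled and 8.42 to 11.2 in C2C12 samples, with Matn1, Hapln1 and Cnmd above background on no array. Col9a1, Comp and Matn3 were each above background on 1 array, and Col2a1 made up most of the sum in every sample. Of the 2 markers tested, Col2a1 was higher as given above, a call lost slide-blocked (limma adjusted p = 0.251). Col11a2 differed by 0.40 without passing (limma adjusted p = 0.489).

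**Figure D4:**
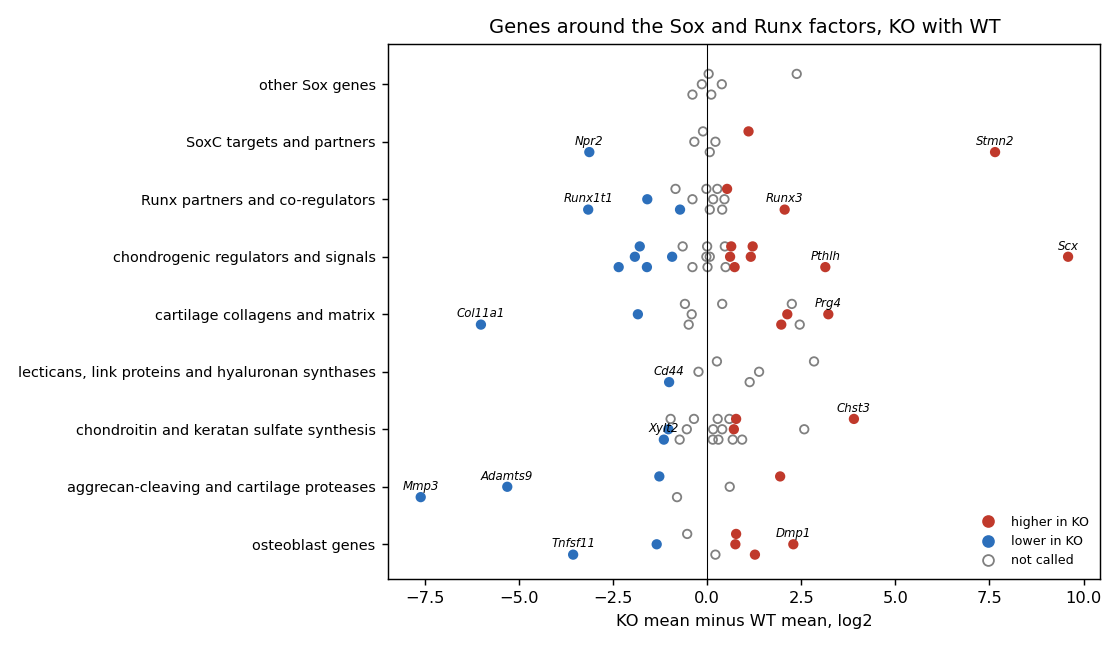
KO-labelled minus WT-labelled difference on the log2 scale (horizontal axis) of each tested gene, by list. Red is higher and blue lower at an adjusted p below 0.05, and open circles did not pass; up to 2 of the largest called differences of each list are named. Calls lie on both sides of 0 in 7 of the 9 lists, and Scx lies farthest to the right.

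The genes with the most similar profile were found over the 8 samples by the root mean square difference of centred log2 values, among 15804 genes. For Sox11, on its brightest probe, they were Jag2 (0.29), Gatm (0.30) and Jph1 (0.32), distances that rest in part on the 3 WT-labelled Sox11 values at background. For Sox9 they were AK011948 (0.17), Zfp33b (0.24) and Sh2d5 (0.24), with a Sox9 range of 2.78. For Runx1 the nearest were an unnamed probe, Hacd1 and Kremen1 (0.17, 0.17 and 0.18), for Sox4 Oga, Cdk20 and Ccdc189 (0.12, 0.13 and 0.13), for Runx2 Scarf2, Mcl1 and Zfp800 (0.08, 0.09 and 0.10), and for Acan Trafd1, Rnf13 and Tmco3 (0.07, 0.08 and 0.09). These profiles share arrays and groups, and with 8 samples many genes can look alike.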

How the data were processed

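RNA of 11 samples was labelled with Cy3 and hybridised to Agilent arrays, per the labels' protocols. The deposited scanner intensity values were made by the authors with Agilent Feature Extraction, version 9.5.3.1 in the submitters' processing notes; the software subtracted background, per the file headers. Of the deposited files, 1 table of all arrays holds log2 values, which lay within 0.01 of the scanner's for 99.7 to 99.8% of probes on each array. Control and flagged spots were left out and repeated spots averaged. Probe positions are on mm8, per the file headers. Pairs of arrays whose differences were 0.575 to 0.676 of spot noise (KO ventricle, KO aorta and C2C12, slides 1 and 3) were averaged, giving 8 samples.

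Values were log2 signal minus each array's 75th percentile. Probes above background on at least 3 fitted arrays were tested, the gene's probe being the one of highest mean, with limma 3.58.1 in R 4.3.3 (lmFit, eBayes, Benjamini-Hochberg over all genes), checked on simulated data. "Over probes" means all probes were fitted. Bounds set the brighter group's mean against the dim group's mean of, per array, the higher of the probe's signal and the lowest signal above background. Precision is limited by the number of arrays. Named genes were all members, the 3 largest called differences of each list and up to 2 of each never above background. Some genes so chosen are not reported here. Members and lists were chosen with earlier results of these data known. Tables and plots used Python with pandas and matplotlib. Alternatives covered background, scaling, filter, probe, slide, region and left-out samples.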

Additional observations from a re-analysis of the deposited data

How the results depend on the processing

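Sox9 kept its lower level in KO-labelled cells, and its call, under every alternative run (difference -2.69 to -1.87). Over all results for single members, 648 kept their side of the threshold without a called value changing sign, 13 newly passed, 8 no longer passed and 7 reversed, counting each gene, comparison and alternative. Most of the 13 were Sox11, KO-labelled with WT-labelled. Among the 648, 42 values that did not pass changed sign, spread over 17 results, as in the Acan difference between KO-labelled and WT-labelled cells (-0.17), which was 0.05 with the slide block and 0.26 with normexp. The called values that reversed were all Sox11, WT-labelled with C2C12, where a change of filter or samples moves the gene to its probe nearest the start: 0.33 with probes above background on every array, 0.33 with only the 2 groups compared in the fit, and, leaving out 1 sample at a time, fitted values from -7.41 to 0.35, of which 0.32 to 0.35 were those on that probe; the negative ones are set against background and are no exact size. The 198 genes called for KO-labelled with C2C12 became 45 with normexp, 99 with no filter, 60 with probes above background on every array, 1629 with every array as its own sample, 27 with the slide block and 13 to 464 leaving out 1 sample. The 4461 for KO-labelled with WT-labelled became 2793 with normexp, 891 with the slide block and 2643 to 5873 leaving out 1 sample. The 4265 for WT-labelled with C2C12 became 2508 with normexp, 6661 with every array as its own sample, 2286 with the slide block and 2273 to 5624 leaving out 1 sample. Called regions went to 72 genes (ventricle with aorta), 65 (atrium with aorta) and 50 (ventricle with atrium) with every array as its own sample, and leaving out 1 sample gave 0 to 0, 0 to 123 and 0 to 125, the highest without KO-labelled atrium. Members higher in KO-labelled than WT-labelled cells were 1, but 0 with no filter, 0 to 1 leaving out 1 sample, and 2 with normexp, the mean of all probes, every array as its own sample, all 3 groups in the fit or the probe with the highest single sample. With the slide block, and without WT-labelled ventricle or WT-labelled aorta, the 1 was Sox11, while Runx1 no longer passed. In the alternatives with 2, Sox11 was added to Runx1. These Sox11 calls rest, at least in part, on probes at background in WT-labelled cells. Members lower in KO-labelled than WT-labelled cells were 2, but 1 with normexp or probes above background on every array, and 1 to 2 leaving out 1 sample. WT-labelled with C2C12 had 2 higher and 2 lower; these became 1 higher with normexp, 1 and 1 with probes above background on every array, 1 lower with only the 2 groups in the fit, 3 higher with every array as its own sample, and 1 to 3 higher and 1 to 2 lower leaving out 1 sample. KO-labelled with C2C12 had 1 lower with every array as its own sample. Sox5 falls out of the test by construction when a WT-labelled sample is left out, as its probe is then above background on fewer than 3 arrays. It also falls out with probes above background on every array, being at background in KO-labelled and C2C12 cells. With all 3 groups in the fit, or the probe with the highest single sample, the probe rule moves Sox11 to its brightest probe. Otherwise the cause was not tested. The share of KO-labelled with WT-labelled calls that were higher was 45.9%, 55.2% with normexp, 55.4% with median scaling and 57.1% with the slide block. The labels give no replicate numbers; with heart region as a block, which sets KO-labelled against WT-labelled samples within regions, 3644 genes were called and no member's call changed. Sox6, Acan and most Sox5 probes lie at or near background, which limits what can be said of them.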
